A study of Mus musculus with 8 samples.

Results

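Chromatin accessibility was followed at 8 mouse genes that encode the GATA, TAL1 and LMO2 complex of blood cells: the GATA factors Gata1, Gata2 and Gata3, the basic helix-loop-helix factors Tal1 and Lyl1, the bridging proteins Lmo2 and Ldb1, and the GATA cofactor Zfpm1, also called FOG1. The cells were AML246, a mouse acute myeloid leukaemia line grown with the cytokine IL-3, in which addition of doxycycline (Dox, 0.1 µg/mL) restores PU.1 and its withdrawal returns the cells to PU.1 knockdown, per the labels. ATAC-seq, in which a transposase inserts adapters into open DNA, gave 1 list of peak summits per library. The 8 groups held 1 library each: total viable cells at day 0 (untreated) and at day 4, 8 and 12 on Dox, CD11b-high viable cells sorted at day 12 on Dox, and total viable cells 4, 8 and 12 days after Dox was withdrawn at day 12. All groups are cultures of the same line, so nothing here speaks for other leukaemias or for normal cells. Summits extended by 150 bp to each side and merged over the 8 lists gave 68800 regions. A region belonged to a gene when that gene's span was the nearest protein-coding span within 100 kb of its midpoint, which held for 64638 regions. The 8 genes held 50 of them: 14 at Zfpm1, 13 at Lmo2, 8 at Gata2, 6 at Gata3, 3 each at Tal1, Lyl1 and Ldb1, and 0 at Gata1.

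In this complex a GATA factor and a dimer of TAL1 or LYL1 with an E protein each hold DNA, and LMO2 and LDB1 join them and bring distant elements to promoters. GATA2 is known for work in stem, progenitor and mast cells, GATA1 for red cells, platelets, mast cells and eosinophils, and GATA3 for T cells, while FOG1 binds GATA factors and helps them to switch genes on or off. PU.1, the ETS factor encoded by Spi1, and GATA1 are known to bind each other and to oppose each other's activity when blood cells choose between myeloid and erythroid fates. GATA2 binds its own gene, and the exchange of GATA2 for GATA1 at that gene is a textbook case of GATA factor switching.

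A region is called open in a library when that library's list has a summit in it. Each list was called by itself, so a region that is not open was not called, and how deep each library was read is unknown here. The authors' score of a summit was read as a −log10 p-value or q-value. For comparison between libraries, the highest score in a region was divided by that library's median over the 18733 regions open in all 8 libraries, which ran from 15.6 at day 12 to 31.8 at 4 days off. A scaled score of 1 is thus the middle of the regions open throughout, and a fold of scaled scores is not a fold of accessibility. With 1 library per group there is no spread between replicates, no test was run between conditions, and every value describes these libraries. In such bulk samples, fewer cells with a region open and less opening per cell cannot be told apart.

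RefSeq lists 11 transcription starts (GRCm38.p6, the build also called mm10) for 7 of the 8 genes, and Lmo2 has no entry in that table. Of the 250 bases before each start, 4 windows are shown, because the 2 starts of Gata2 differed in how often they were open and because the first start of Tal1 and the last of Ldb1 are the windows with the core GATA letters GATAA. Capitals mark GATAA, read on either strand. The windows are chr6:88193641-88193890 (plus strand) for the distal Gata2 start, chr6:88198414-88198663 (plus strand) for the proximal Gata2 start, chr4:115056176-115056425 (plus strand) for the first Tal1 start and chr19:46037071-46037320 (minus strand) for the last Ldb1 start.
Gata2 distal start: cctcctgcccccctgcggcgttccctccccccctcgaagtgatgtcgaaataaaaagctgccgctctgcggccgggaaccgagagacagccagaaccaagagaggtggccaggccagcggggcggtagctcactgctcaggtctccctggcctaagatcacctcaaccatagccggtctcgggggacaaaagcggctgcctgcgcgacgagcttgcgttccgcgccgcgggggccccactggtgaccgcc
Gata2 proximal start: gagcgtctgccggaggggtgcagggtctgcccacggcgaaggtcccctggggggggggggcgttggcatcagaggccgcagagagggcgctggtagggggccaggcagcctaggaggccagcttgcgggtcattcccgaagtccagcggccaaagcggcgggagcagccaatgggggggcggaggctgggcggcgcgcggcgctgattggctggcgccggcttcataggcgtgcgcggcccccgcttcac
Tal1 first start: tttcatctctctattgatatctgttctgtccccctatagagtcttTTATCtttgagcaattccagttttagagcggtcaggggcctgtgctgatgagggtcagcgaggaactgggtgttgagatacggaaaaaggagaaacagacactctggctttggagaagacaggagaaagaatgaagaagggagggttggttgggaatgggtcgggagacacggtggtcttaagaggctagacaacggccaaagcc
Ldb1 last start: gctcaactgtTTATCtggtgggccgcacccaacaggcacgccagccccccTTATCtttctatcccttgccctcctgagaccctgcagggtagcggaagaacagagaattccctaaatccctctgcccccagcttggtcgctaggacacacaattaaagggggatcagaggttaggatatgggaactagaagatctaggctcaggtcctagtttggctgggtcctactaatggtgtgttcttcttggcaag
GATAA occurred 1 time in the Tal1 window and 2 times in the Ldb1 window, and no library had a region over either of them. Over all 32851 windows of the RefSeq table, 22.6% held GATAA. Neither Gata2 window held GATAA or the E-box letters CANNTG, which 66.2% of all windows held. No window of the 7 genes held GAGGAAGT, a form of the PU.1 motif that 2.44% of all windows held. None held the joint E-box and GATA motif either, written as CTG and GATAA with 8 or 9 bases between them, which occurred in 0.502% and 0.755% of all windows. All were searched on both strands, and the GATAA of a joint motif also counts as GATAA. These matches are letters in a window and show no binding.

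Few of the 50 regions were gained or lost, and their shares lay near those of all regions. During restoration 2 regions were gained, meaning called at each of day 4, 8 and 12 but missing from the day-0 list. They made up 4.0% (exact Clopper-Pearson 95% interval 0.488 to 13.7), beside 4.86% of all regions assigned to a gene. Only 1 region, 2.0% (0.0506 to 10.6), was lost, meaning called on day 0 and on none of day 4, 8 and 12, beside 5.49% of all. Both gained regions lay at Lmo2 and the lost one at Zfpm1. With day 12 alone set against day 0, 6 regions were open at day 12 only, beside 13.5% of all regions, and 6 at day 0 only, beside 15.7%. All intervals cover counting error only, and regions of 1 gene are not independent.

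Calls in all 8 libraries were made for 12 of the 50 (24.0%, beside 27.9% of all regions), and 17 were called in a single library (34.0%, beside 23.1%). The remaining 21 were called in 2 to 7 libraries. Of the 9 regions within 1 kb of an annotated start, 4 were open in all 8 libraries, at Gata2, Lyl1 and Ldb1, the last with 2. The share over all regions near a start is not given here. Measured to the ends of the gene span instead, 1 of the 12 always-open regions lay within 1 kb (8.33%). Of all always-open regions assigned to a gene, 44.9% did. The regions found in a single library included 6 of 4 days off and 4 of day 8, which are the 2 longest lists, and none of day 0 or day 4. Of the rest, 3 were of 8 days off, 2 of day 12, and 1 each of CD11b-high cells and 12 days off. The number of open regions was 21, 21, 34 and 21 at day 0, 4, 8 and 12. It was 34, 28 and 25 at the 3 times after withdrawal and 24 in CD11b-high cells. Per 10000 open regions of each library this was 5.93 (3.67 to 9.06) at day 0, 6.09 (3.77 to 9.31) at day 4, 7.40 (5.13 to 10.3) at day 8 and 6.16 (3.81 to 9.41) at day 12. At 4, 8 and 12 days off the same measure was 6.80 (4.71 to 9.50), 6.89 (4.58 to 9.96) and 8.02 (5.19 to 11.8), and it was 6.83 (4.38 to 10.2) in CD11b-high cells. All 8 intervals overlapped.

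**Figure D1:**
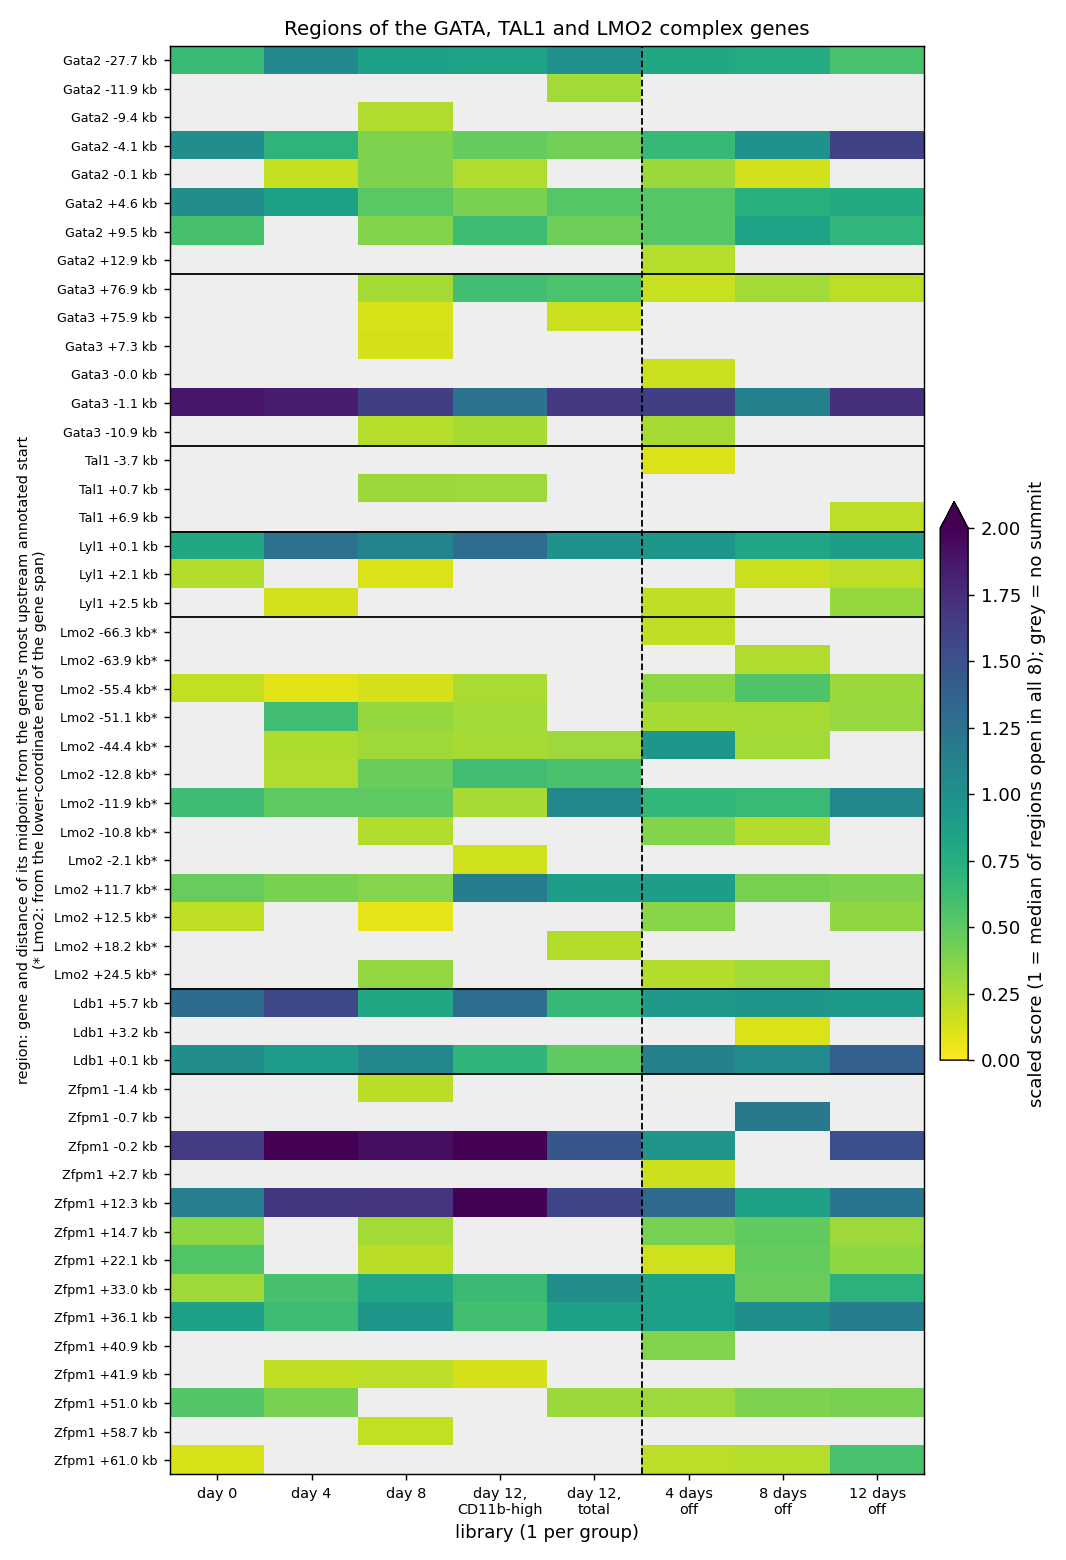
Scaled score (colour) of each of the 50 regions (rows, grouped by gene and labelled with the distance from the most upstream annotated start, for Lmo2 from the lower-coordinate end of the gene span) in each library (columns); grey means no summit, and the dashed line separates the libraries on Dox from those off Dox. The 12 rows without grey are the regions open in all 8 libraries, and Tal1 has none.

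**Figure D2:**
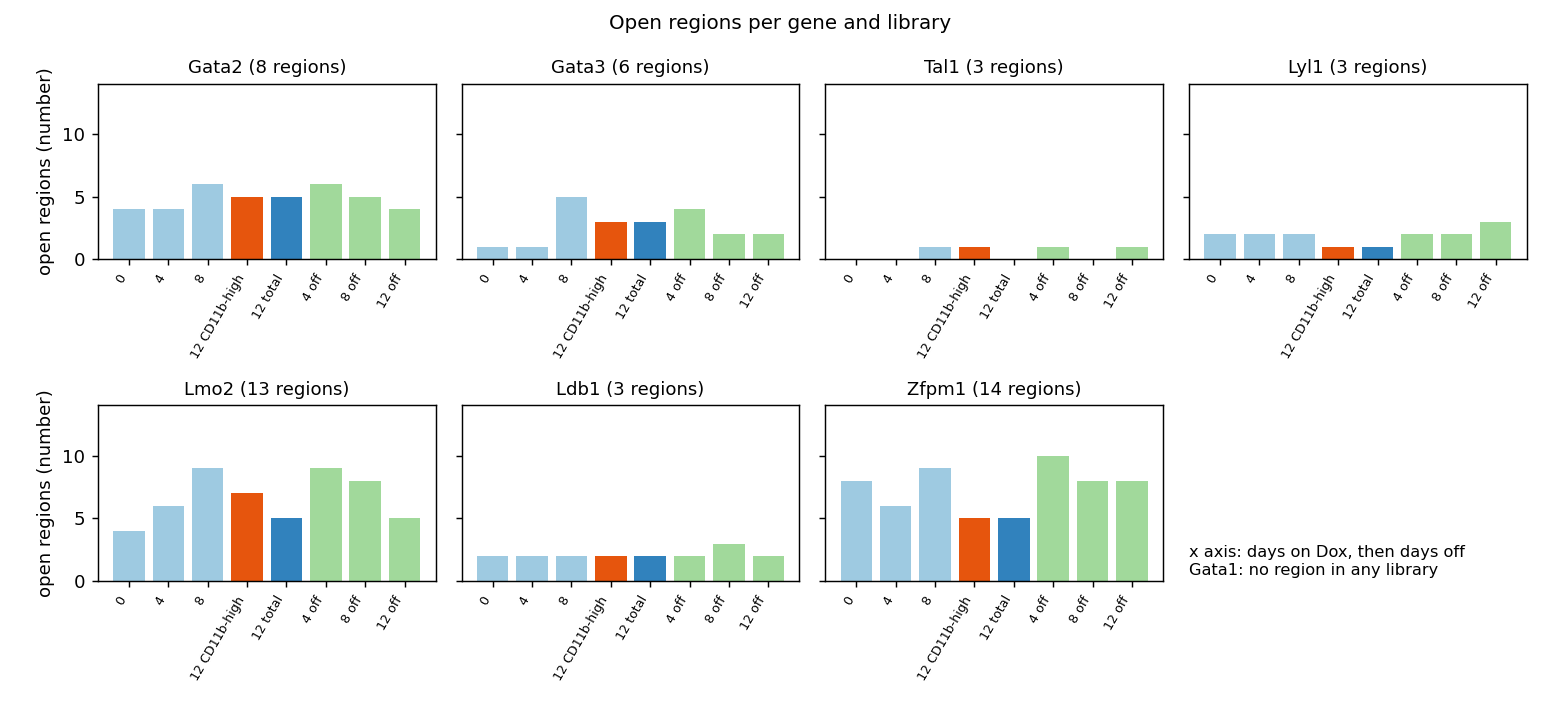
Number of open regions (y axis) per library (x axis, days on Dox and then days off) for the 7 genes with a region, 1 bar per library. Lmo2 and Zfpm1 vary most, with 4 to 9 and 5 to 10 open regions, while Ldb1 has 2 in every library except for 3 at 8 days off.

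Gata1 (chrX:7959260-7976663) encodes the GATA factor that drives red cell, platelet, mast cell and eosinophil genes. No library had a region assigned to it. The nearest region, chrX:7947757-7948198, lay 11283 bp outside the gene, was assigned to the deacetylase gene Hdac6 and was called in every library, with scores of 17.4 to 48.3. Within 100 kb of Gata1 other genes held 12 regions, 5 of them open throughout. The neighbourhood was therefore called in every list, while the gene itself was not called in any.

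Gata2 (chr6:88193891-88207032) encodes the GATA factor of stem, progenitor and mast cells, and its regions open at all times included 2 with low scores at day 8 and 12. The first, chr6:88189516-88189999, lies 4134 bp upstream of the distal start. Its scaled score was 1.02, 0.700, 0.387 and 0.429 at day 0, 4, 8 and 12 on Dox, and 0.664, 0.978 and 1.61 at 4, 8 and 12 days off. The lowest values were those of day 8 and day 12, and the highest was that of 12 days off. CD11b-high cells had 0.472, against 0.429 in total cells of day 12. The unscaled scores of total cells were likewise lowest at day 8 and 12, with 10.2 and 6.68, and highest at 12 days off, with 27.1. CD11b-high cells had an unscaled score of 7.68, below that of day 8. Summits of this region lay up to 183 bp apart between libraries, so its scores may not be the course of a single element.

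Set as pairs, this upstream region had 0.420 times the scaled score at day 12 that it had at day 0, 0.462 times in CD11b-high cells against day 0, and 3.75 times at 12 days off against day 12. Of all regions open in all 8 libraries, 7.71% were at least 2-fold lower at day 12 than at day 0, 7.31% were so in CD11b-high cells, and 6.75% were at least 2-fold higher at 12 days off than at day 12. The region was at least 2-fold below day 0 at day 8, at day 12 and in CD11b-high cells alike, a pattern that 1.38% of those regions shared and that was looked for after these values were seen. The 3 contrasts share the day-0 library, and the withdrawal contrast shares day 12. Ranked among the 18733 regions, its percentile was 51.0, 36.9, 6.92 and 11.9 at day 0, 4, 8 and 12, and 24.6, 48.8 and 73.5 at 4, 8 and 12 days off.

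The proximal start of Gata2, whose sequence is printed above, lies in the region chr6:88198147-88198800, also open in all 8 libraries. Its scaled score was 1.01, 0.861, 0.513 and 0.529 at day 0, 4, 8 and 12, and 0.531, 0.733 and 0.789 at 4, 8 and 12 days off. It was highest at day 0 and stayed below that value in all 6 later libraries of total cells. CD11b-high cells had 0.405, against 0.529 in total cells. Day 12 over day 0 was 0.523, which misses a 2-fold difference, and CD11b-high over day 0 was 0.400. Regions within 1 kb of a start tended to lie lower at day 12, with a median log2 of -0.17 over 7891 always-open regions, 8.45% of them at least 2-fold lower. The 10842 farther ones had a median of 0.17 and 7.18% at least 2-fold lower, so the upstream region of Gata2 had the opposite sign to the median of regions at such a distance.

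The distal start of Gata2, printed above as well, lies in the region chr6:88193438-88194127. Summits with scores of 3.37 to 10.3 were called there in 5 libraries, those of day 4, day 8, CD11b-high cells and the first 2 times after withdrawal. Day 0, total cells of day 12 and 12 days off had none. The same pattern was found in 170 regions of the series. Only the windows of day 8 and of 8 days off covered the distal start itself, and the summits of the region lay up to 389 bp apart. The proximal start was covered in all 8 libraries. With scores this low, a missing call does not show closed chromatin.

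Further along, chr6:88203058-88203658 lies inside Gata2, 9.47 kb downstream of the distal start, about where the well-studied +9.5 enhancer of the gene, which carries joined E-box and GATA letters, is described. The region was open in 7 libraries and not at day 4. It held 2 summit positions up to 299 bp apart: day 8 and 12 days off had the downstream one, day 12 both, and the other 4 libraries the upstream one, so its scores are not the course of a single element. Its scaled score was 0.579, 0.372 and 0.440 at day 0, 8 and 12, and 0.518, 0.851 and 0.681 at 4, 8 and 12 days off. CD11b-high cells had 0.624, against 0.440 in total cells. The region chr6:88165989-88166471, 27661 bp upstream, ran otherwise: it had 0.648, 1.06, 0.853 and 0.987 at day 0, 4, 8 and 12, and 0.808, 0.770 and 0.574 at 4, 8 and 12 days off. Its 2 lowest values were those of day 0 and of 12 days off, while the 4134 bp region had its 2 highest values there. Summits of the 27661 bp region lay up to 182 bp apart between libraries.

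Another 3 regions of Gata2 were open in 1 library each, at day 8, at day 12 and at 4 days off, with scores of 4.32 to 7.07. Upstream, a region 76.8 kb from the distal start was assigned to the neighbouring gene Rpn1 and was open in all 8 libraries, with scores of 25.8 to 66.5. It is not counted among the 50. Gata2 is also a gene of mast cells, and the 5 mast cell marker genes held 4 to 8 open regions per library, with Fcer1a at 0 in all 8. The part of such cells in the Gata2 scores was not tested.

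**Figure D3:**
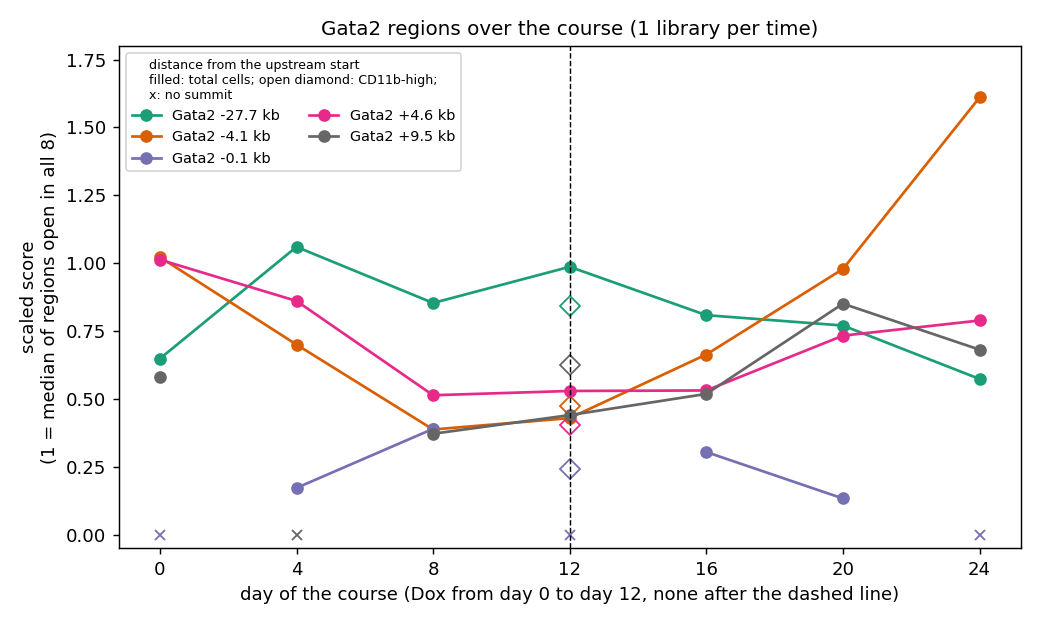
Scaled score (y axis) of the 5 Gata2 regions open in at least 5 libraries against the day of the course (x axis), with lines through the libraries of total cells, open diamonds for CD11b-high cells and crosses where no summit was called. The region 4.1 kb upstream is at 0.387 and 0.429 at day 8 and 12 and at 1.61 at the last time, while the region 27.7 kb upstream does not share this course.

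Gata3 (chr2:9857078-9887953), the T cell GATA factor, had 1 region open in all 8 libraries and 5 that were called on neither day 0 nor day 4. The stable region, chr2:9879501-9879847, lies 1074 bp upstream of the annotated start, with scaled scores of 1.88, 1.84, 1.63 and 1.67 at day 0, 4, 8 and 12, and 1.63, 1.12 and 1.73 at 4, 8 and 12 days off. Its value in CD11b-high cells was 1.24, against 1.67 in total cells. The region over the start itself, chr2:9878487-9878787, was open at 4 days off only, with a score of 4.98.

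Downstream of Gata3, the region chr2:9801415-9801952 lies 76917 bp from the start, had no call on day 0 or 4 and a call in the other 6 libraries. Its scaled score was 0.272 and 0.569 at day 8 and 12, and 0.164, 0.280 and 0.195 at 4, 8 and 12 days off. CD11b-high cells had 0.605, the highest value, against 0.569 in total cells. The same pattern of calls was found in 259 regions. The gene had 1, 1, 5 and 3 open regions at day 0, 4, 8 and 12, and 4, 2 and 2 at 4, 8 and 12 days off.

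Tal1 (chr4:115056426-115071755), also known as Scl, encodes the helix-loop-helix factor needed to make blood stem cells. Its highest score, 7.95, was the lowest maximum of the 7 genes with a region, and no summit window covered either annotated start. The region chr4:115056874-115057354, 688 bp downstream of the first start and between both starts, was open at day 8 with that score and in CD11b-high cells with 4.76, against no call in total cells of day 12. The others were open once each, at 4 days off with 3.61 and at 12 days off with 3.38. No region assigned to Tal1 was open at day 0, 4 or 12 or at 8 days off. Other genes held 10 regions within 100 kb, 1 of them open throughout. The nearest of these, chr4:115047764-115048076, lay 8506 bp upstream of Tal1 and was assigned to the neighbouring gene Stil. It was called in 6 libraries, with scores of 5.69 at day 12 to 12.6 at day 0. CD11b-high cells and 12 days off had no call there.

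Lyl1 (chr8:84701423-84704716) encodes the close relative of TAL1 that can take its place in many blood cells. The region that holds its start, chr8:84701294-84701904, was open in all 8 libraries, though only the windows of day 4 and of 12 days off covered the start itself and the summits lay up to 310 bp apart. It had scaled scores of 0.809, 1.25, 1.10 and 0.983 at day 0, 4, 8 and 12, and 0.940, 0.818 and 0.883 at 4, 8 and 12 days off. Its value in CD11b-high cells was 1.28, against 0.983 in total cells, and all these values lay near the median of regions open throughout. Of its other regions, chr8:84703357-84703745 was called in 4 libraries (day 0, day 8, 8 days off and 12 days off), with scores of 3.07 to 5.58. Its neighbour chr8:84703790-84704213 was called in 3 (day 4, 4 days off and 12 days off), with 3.77 to 6.06. Summits of libraries without a call in 1 of the pair lay as near as 408 to 512 bp, in the other.

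Lmo2 (chr2:103957903-103981878) encodes the bridging protein that links the GATA factor to the helix-loop-helix dimer, and it held both regions gained during restoration. The first, chr2:103944923-103945273, lies 12805 bp outside the gene. It had scores of 6.44, 12.0 and 8.97 at day 4, 8 and 12 and no call before Dox or after its withdrawal. CD11b-high cells had 9.91, against 8.97 in total cells. A summit of the day-0 list lay 919 bp from its midpoint, in the next region, so open chromatin was called close by at day 0. Summits of 4, 8 and 12 days off lay 823, 856 and 897 bp from that midpoint, also in the next region. The same pattern of calls was found in 584 regions of the series.

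The other gained region, chr2:103913306-103913617, lies 44442 bp outside the gene. Its scaled score was 0.247, 0.281 and 0.296 at day 4, 8 and 12, and 0.941 and 0.280 at 4 and 8 days off. The first and the last library of the course had no call. The value of 4 days off was the highest, above all libraries on Dox. CD11b-high cells had 0.261, against 0.296 in total cells.

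Of the 2 Lmo2 regions open in all 8 libraries, 1 was at least 2-fold lower in CD11b-high cells than in total cells of day 12. The region chr2:103945771-103946188, 11924 bp outside the gene, had 0.260 in CD11b-high cells, against 1.07 in total cells of day 12, a ratio of 0.243. Of all always-open regions, 3.97% were at least 2-fold lower in CD11b-high cells. On the course its scaled score was 0.621, 0.495, 0.495 and 1.07 at day 0, 4, 8 and 12, and 0.674, 0.654 and 1.06 at 4, 8 and 12 days off.

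The region chr2:103969374-103969756, inside Lmo2, had 1.15 in CD11b-high cells, against 0.884 in total cells of day 12. Its course was 0.461, 0.403, 0.366 and 0.884 at day 0, 4, 8 and 12, and 0.883, 0.411 and 0.385 at 4, 8 and 12 days off. The high values were those of day 12, CD11b-high cells and 4 days off. At 12 days off it had 0.435 times the value of day 12, and 8.72% of always-open regions were at least 2-fold lower in that contrast. CD11b-high over day 0 was 2.49, beside 11.4% of always-open regions at least 2-fold higher.

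Farther out at Lmo2, chr2:103906595-103906926 was called in 6 libraries, day 0 and total cells of day 12 being the exceptions. Its scaled score was 0.613 at day 4 and between 0.259 and 0.317 in the other 5, and 89 regions of the series had the same pattern. The region chr2:103902234-103902738 was open in all libraries except day 12, with 0.181, 0.0925 and 0.131 at day 0, 4 and 8, and 0.340, 0.547 and 0.301 at 4, 8 and 12 days off. CD11b-high cells had 0.255, against no call in total cells. Of the remaining 7 Lmo2 regions, 4 were open in 1 library and 3 in 3 or 4, with scores of 1.97 to 11.8. The strand of Lmo2 and its starts were not used here.

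**Figure D4:**
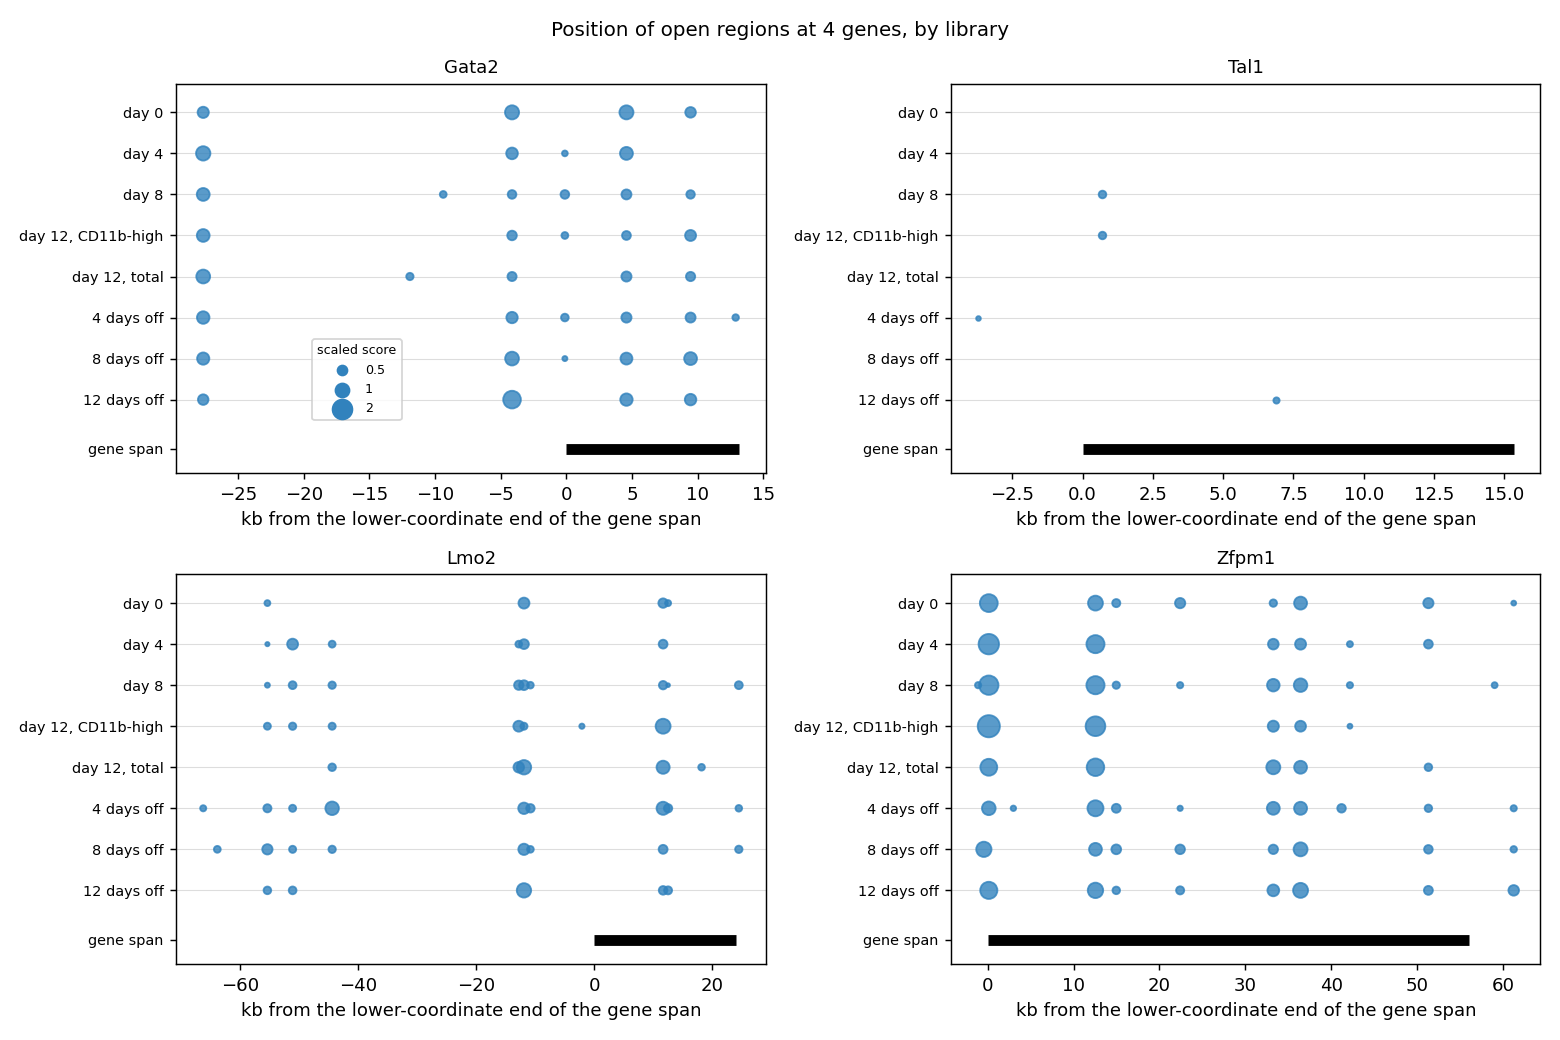
Midpoints of open regions (x axis, kb from the lower-coordinate end of the gene span; black bar, gene span) in each library (rows) at Gata2, Tal1, Lmo2 and Zfpm1, with dot area in proportion to the scaled score. The 2 gained Lmo2 regions, 12805 and 44442 bp below the gene, are missing from the day-0 row, and Tal1 has no dot in 4 of the 8 rows.

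Ldb1 (chr19:46031525-46048145) encodes the protein that pairs with itself and so holds distant elements together. Its first start lies in chr19:46044824-46045507, a region open in all 8 libraries, which had scaled scores of 1.02, 0.894, 1.08 and 0.488 at day 0, 4, 8 and 12, and 1.13, 1.03 and 1.39 at 4, 8 and 12 days off. Its value in CD11b-high cells was 0.693, against 0.488 in total cells. Day 12 over day 0 was 0.478 and 12 days off over day 12 was 2.84. The 2 lowest values were those of the day-12 libraries, while day 8 over day 0 was 1.05. The summits of CD11b-high and total cells of day 12 lay 337 and 258 bp from the start and did not cover it, while those of the other 6 libraries lay within 46 bp. These ratios therefore compare different summits of a merged region.

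The second start, in chr19:46039458-46039832, was covered by a summit window in all 8 libraries. The region had 1.29, 1.57, 0.810 and 0.660 at day 0, 4, 8 and 12, and 0.920, 0.945 and 0.907 at 4, 8 and 12 days off. CD11b-high cells had 1.28, against 0.660 in total cells, a ratio of 1.93. At the last start, whose printed window carries GATAA 2 times, no region was called. The remaining region of Ldb1 was open at 8 days off only, with a score of 2.58.

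Zfpm1 (chr8:122281856-122337862) encodes FOG1, the cofactor that GATA1 needs in red cells and megakaryocytes, and its regions did not share 1 course. The region over its start, chr8:122281728-122282232, had scaled scores of 1.64, 2.14, 1.92 and 1.47 at day 0, 4, 8 and 12, and 0.959 and 1.51 at 4 and 12 days off. CD11b-high cells had 2.53, the highest value at the gene, against 1.47 in total cells. At 8 days off no summit was called there, but 1 with a score of 30.2 was called in the adjoining region chr8:122281255-122281555, 575 bp from its midpoint. That summit lay 736 bp from the annotated start. Only the windows of total cells of day 12 and of 4 days off covered the start itself, so the scores belong to a region with summits up to 204 bp apart.

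Inside Zfpm1, 2 regions had lower scaled scores at day 0 than at day 4, 8 and 12. The region chr8:122314911-122315312, 32970 bp downstream of the start, had 0.284, 0.585, 0.814 and 1.01 at day 0, 4, 8 and 12, and 0.855, 0.456 and 0.716 at 4, 8 and 12 days off. Its value in CD11b-high cells was 0.640, against 1.01 in total cells. Day 12 over day 0 was 3.56, beside 12.1% of always-open regions at least 2-fold higher, and 18.8% among those farther than 1 kb from a start. The region chr8:122294167-122294638, 12261 bp downstream, had 1.14, 1.68, 1.69 and 1.58 at day 0, 4, 8 and 12, and 1.32, 0.852 and 1.22 at 4, 8 and 12 days off. CD11b-high cells had 1.99, against 1.58 in total cells. Unscaled, this second region had 27.8 at day 0 and 24.6 at day 12, so it was not lower at day 0. With scores divided by the list median, its log2 of day 12 over day 0 was 0.12. The remaining always-open region, chr8:122318087-122318481, ranged over 0.607 to 1.16, lowest in CD11b-high cells and highest 12 days after withdrawal.

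Other Zfpm1 regions were called before Dox and after its withdrawal but not at day 12. The lost one, chr8:122342930-122343278, lies 5242 bp outside the gene and had a score of 3.03 at day 0, near the bottom of its list, and 6.41, 5.57 and 9.70 at 4, 8 and 12 days off. The regions chr8:122296620-122297027 and chr8:122304080-122304442 shared 1 pattern: called before Dox, on day 8 and at all 3 times after withdrawal, but missing on day 4 and in both day-12 libraries. Their scaled scores lay between 0.147 and 0.546. The wider pattern of a call on day 0 and 12 days after withdrawal but in neither day-12 library was found for 5 of the 50 regions, 3 of them at Zfpm1 and 1 each at Lyl1 and Lmo2. That is 10.0% (3.33 to 21.8), beside 4.28% of all regions, and the pattern was chosen after these calls were seen. The reverse pattern was found for 2 regions, both at Lmo2, beside 6.18% of all regions.

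Among the other Zfpm1 regions, chr8:122332847-122333492 was open in 6 libraries and not at day 8 or in CD11b-high cells. The region chr8:122323836-122324228 was called in 3 libraries (day 4, day 8 and CD11b-high cells), with scores of 2.04 to 5.32. Another 5 were open in 1 library each, including that of 8 days off beside the start. Most of the gene's calls lay inside its span, which held 10 of the 14 regions.

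Between CD11b-high and total cells of day 12, the intervals of both shares held the share of all regions. In CD11b-high cells only, 7 regions were open (14.0%, 5.82 to 26.7), beside 10.5% of all, with 3 at Lmo2 and 1 each at Gata2, Gata3, Tal1 and Zfpm1. In total cells only, 4 were open (8.0%, 2.22 to 19.2), beside 9.15% of all, 1 each at Gata2, Gata3, Lmo2 and Zfpm1. At a score of at least 5 the 8 genes held 40 regions. Of these, no region was open in CD11b-high cells only and 1 in total cells only. At a score of at least 10 they held 27 regions, and the numbers were 2 and 2. No share of all regions is given for either minimum.

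Between 12 days off and day 12, 9 regions were open at 12 days off only (18.0%, 8.58 to 31.4), beside 11.2% of all. They were 3 each at Lmo2 and Zfpm1, 2 at Lyl1 and 1 at Tal1. Open at day 12 only were 5 regions (10.0%, 3.33 to 21.8), beside 15.1% of all, with 3 at Lmo2 and 1 each at Gata2 and Gata3. Both intervals held the share over all regions. With lists of equal length the numbers were 9 and 3.

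**Figure D5:**
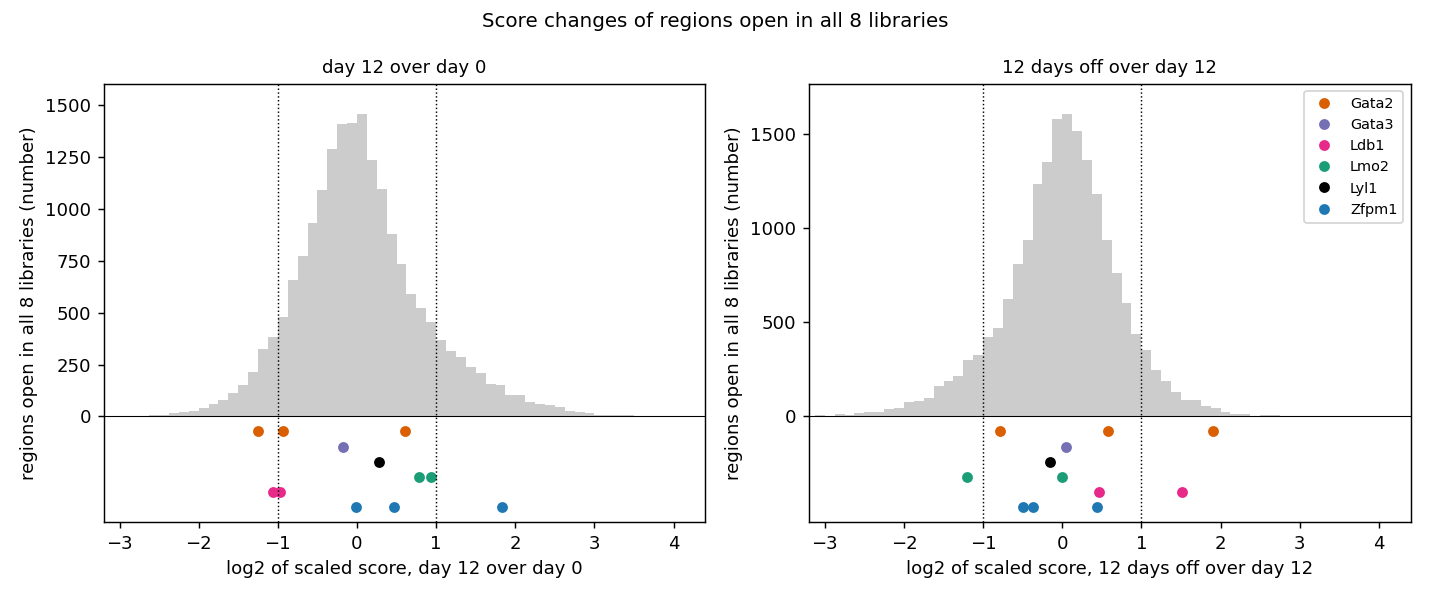
Distribution of the log2 ratio of scaled scores over the 18733 regions open in all 8 libraries (grey bars, number of regions) for day 12 over day 0 (left) and 12 days off over day 12 (right), with the 12 regions of the complex genes as dots below and dotted lines at 2-fold. The Gata2 region 4.1 kb upstream lies at -1.25 on the left and at 1.91 on the right, and the Zfpm1 region at 1.83 on the left.

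Over the 12 always-open regions the median log2 of day 12 over day 0 was 0.13, beside -0.01 over all 18733. Scores divided by the list median turn its sign, with -0.22 beside -0.36. As scaled here, 2 were at least 2-fold lower, at Gata2 and Ldb1, and 1 was at least 2-fold higher, at Zfpm1. For 12 days off over day 12 the median was 0.02, beside 0.02, with 1 at least 2-fold lower, at Lmo2, and 2 at least 2-fold higher, at Gata2 and Ldb1. The same 2 regions of Gata2 and Ldb1 stood out in both contrasts, which share the day-12 library, and at Ldb1 the day-12 summit lay elsewhere in the region, as given above. At Gata2 the day-8 and CD11b-high libraries were at least 2-fold below day 0 as well, and at Ldb1 they were not, with ratios of 1.05 and 0.679. At day 8 that Gata2 region was the 1 of 12 at least 2-fold below day 0, beside 4.64% of all, and the Zfpm1 region the 1 above it, beside 11.2%. At 8 days off the Gata2 and Ldb1 regions were at least 2-fold above day 12, with 2.28 and 2.12, beside 5.78% of all. The Lmo2 region inside the gene and the Zfpm1 region were at least 2-fold below day 12, with 0.465 and 0.452, beside 6.06%. The contrast of 8 days off rests on the same day-12 library, so it is no independent repeat. No region of the 12 was at least 2-fold higher in CD11b-high than in total cells, beside 3.59% of all.

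Partners and targets of the complex were taken from lists chosen for this account. The E-protein and bridging partners, 12 genes with 125 regions, held 4 gained and 8 lost regions (3.2% and 6.4%, beside 4.86% and 5.49% of all regions), with 2 genes gaining and 4 losing on balance. They included Zfpm2, the FOG1 relative, and Cbfa2t3, the ETO2 corepressor of the complex, with 0 gained and 2 lost each, the E protein gene Tcf4 with 2 gained and 1 lost, and the LDB1 partner Ssbp3 with 0 gained and 1 lost. The 8 factors often found at the same sites, with 94 regions, held 6 gained and 9 lost (6.38% and 9.57%), led by the ETS factor Fli1 with 3 gained and 0 lost and the repressor Gfi1 with 0 gained and 3 lost. Runx1 had 1 gained and 2 lost, and the progenitor factor Myb 0 gained and 1 lost. Leaving out regions with a summit within 1 kb in the list that should lack it, a step chosen after these counts were seen, left Gfi1 with 0 lost, Zfpm2 with 0 lost, Cbfa2t3 with 1 lost, Tcf4 with 1 gained and 0 lost, and Fli1 with 2 gained. The totals became 3 gained and 4 lost for the partners, and 5 gained and 5 lost for the factors at the same sites. No share of all regions is given for this step, and the shares above do not apply to these totals. Over all 16279 genes with a region, 12.0% gained and 14.4% lost on balance, with a median of 0.

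The erythroid targets and the mast cell, basophil and eosinophil targets differed in their counts. This contrast was seen in these same lists before they were chosen here. The 10 erythroid targets had regions at 8 genes, 17 in all, with 0 gained and 5 lost (29.4%, beside 5.49% of all regions) and a median of -1 per gene. Without regions near another list's summit 4 were lost, and for that step no share of all regions is given. Nfe2, Klf1, Epor and Ermap, which serve red cell gene control, erythropoietin signalling and the red cell surface, each had 0 gained and 1 lost, and Epor had none under that limit. Alas2 and Hba-a1, for haem and globin, had no region. The 10 mast cell, basophil and eosinophil targets had regions at 8 genes, 35 in all, with a median of 0.5 per gene. They held 4 gained (11.4%, beside 4.86% of all) and 0 lost, with 1 gained each at the receptor genes Kit, Ccr3, Il1rl1 and Siglecf. The 5 mast cell marker genes, by contrast, held 11 regions with 0 gained and 0 lost. The 7 erythroid marker genes held 9 regions with 0 gained and 2 lost. The 7 megakaryocyte targets had regions at 6 genes, 35 in all, with 1 gained at the integrin gene Itgb3 and 1 lost at the clotting factor gene Vwf. The platelet integrin gene Itga2b had all 3 of its regions open in all 8 libraries.

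Of 12 myeloid marker genes 11 had a region, beside 16279 of all 21887 genes and 4 of 5 genes each for B cells, T cells, megakaryocytes and mast cells. This does not tell the cell type apart. The myeloid genes had 25 to 42 open regions per library, and Elane had none. Spi1, the gene of PU.1, had 7 regions, 2 of them open throughout, and accessibility there is no measure of the knockdown. Markers of other lineages were also called: 7 erythroid genes held 3 to 6 open regions per library, 5 megakaryocyte genes 4 to 6, 5 B cell genes 2 to 9, 5 T cell genes 8 to 12 and 5 non-blood genes 0 to 3. By the number of open regions per 10000, summed over the 8 genes, the most similar courses among 4595 other genes with at least 5 regions were those of Baz2b (r = 0.964), Gdi2 and Slc26a3 (r = 0.918 each), over 8 libraries. These values share the libraries and their list lengths, and with so few libraries they describe no more than a likeness of counts.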

How the data were processed

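ATAC-seq peak summits of 8 libraries, 1 per group, were used. The labels' extraction note also names ChIP, while their title, source and library steps describe ATAC-seq, and the lists were treated as ATAC-seq. The authors' deposited score per summit was read as a −log10 p-value or q-value, because the smallest score of each list lies just above the −log10 of 0.05. Not given in the sources used here are whether it is a p or a q, the aligner, the MACS2 version and the sequencing depth. MACS2, Picard 2.14.0 and build mm10 are named in the submitters' processing notes, and peaks were called per library, per the peak names in the deposited files. Those names carry terms read here as removed mitochondrial reads, a duplicate step and shifted reads, as ATAC-seq reads are commonly moved to the transposase cut. Lists held 31957 to 51175 summits, with 85 to 121 per list on other contigs left out.

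Summits were extended by 150 bp, merged, and assigned by midpoint to the nearest span of 21887 protein-coding genes (RefSeq GRCm38.p6). No tie between genes arose among the 50 regions. Exon structure was not used here, nor was sequence outside the printed windows. The members, lists and rules were chosen with earlier results of these data known. Named were all 8 genes with their regions, up to 4 genes per list by gained minus lost number (1 such gene is not reported here), and the 3 genes of most similar course. Scores were scaled as described, folds of at least 2 were counted, and intervals are exact 95% binomial ones for counting error. The steps were tested on simulated lists. Python 3.11.15, pandas 2.3.3, numpy 2.4.6 and scipy 1.17.1 were used. Alternatives changed the score minimum, list length, extension, assignment, the rule for gained and lost, and the scaling.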

Additional observations from a re-analysis of the deposited data

How the results depend on the processing

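No paired analysis was possible because each group held 1 library and no test was run. Gained and lost regions, 2 and 1 as reported, numbered 1 gained at a score of at least 5, 1 and 2 at a score of at least 10, 1 and 4 with lists of equal length (31867 summits each), 0 gained with genes within 10 kb, 1 gained once a region with a day-0 summit within 1 kb was left out, and 6 and 6 with day 12 alone. In settings chosen after seeing the data, the rule without the day 4 library gave 4 gained (8.0%, beside 9.94% of all regions). Without the day 8 library 5 were lost (10.0%, beside 8.79%), and without the day 12 library 5 were gained (10.0%, beside 7.49%). Regions open in CD11b-high cells only and in total cells only, 7 and 4, numbered 0 and 1 at a score of at least 5, 2 and 2 at a score of at least 10, and 3 in CD11b-high cells only with lists of equal length. Regions open at 12 days off only and at day 12 only, 9 and 5, numbered 4 and 2 at a score of at least 10, with 2 at day 12 only at a score of at least 5, 3 with lists of equal length and 9 with 100 bp extensions. In place of 50, the 8 genes held 40 regions at a score of at least 5 and 27 at a score of at least 10. They held 36 with lists of equal length and 55 with 100 bp extensions. No share of all regions is given for these settings, for genes within 10 kb or for the limit of 1 kb. The shares of the main setting do not apply to those counts. Fewer summits enter under a score minimum or equal lengths. The cause of the other moves was not tested.

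With scores divided by the list median, 4 in place of 2 always-open regions were at least 2-fold lower at day 12 than at day 0, the proximal start of Gata2 and the second start of Ldb1 being added. The Gata2 region 4134 bp upstream kept its direction under the 3 other scalings, with log2 values of -1.60 to -1.24 for day 12 over day 0 and 1.90 to 1.91 for 12 days off over day 12. With the list median, all always-open regions shifted by -0.35 (log2) for day 12 over day 0, and the median over the 12 turned to -0.22. The value of the Lyl1 start turned as well, between -0.07 and 0.29. No value past 2-fold changed direction.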
